A study of Mus musculus with 16 samples.

Results

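Interferon-stimulated genes are the genes that a cell turns on when type I, II or III interferon binds its receptor. In the kidney cortex studied here, these genes were higher in mice that had lost Vhl alone than in mice that had lost Pbrm1 alone. Of 33 measured members, 20 passed the test in that direction, beside 4.71% of all genes. The members were chosen with earlier results of these data known. The group holds 36 genes given as a list, and its members were taken as the probe sets annotated to them, 1 per gene with the highest mean over all arrays. Of the 36, 33 had a probe set that names no other gene, among 22180 genes measured in all. The probe sets of Oas1a and Gbp2 name another gene as well, and Ifi44 is not listed in the annotation, so these 3 were not analysed here.

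RNA was measured in the kidney cortex of 3-month-old mice of 4 genotypes, with 4 Affymetrix arrays for each genotype. Double mutants carried VhlF/FPbrm1F/FKsp-Cre, Vhl mutants carried VhlF/FKsp-Cre, Pbrm1 mutants carried Pbrm1F/FKsp-Cre, and the last group was wild type. All mice were kept on a normal diet. The Ksp promoter, which drives Cre in all 3 mutant groups, is active in tubule epithelium of the kidney, so cells outside that epithelium keep both genes and contribute RNA to every array. All mutants were on a mixed background of C57BL/6, BALB/c and 129 whereas wild types were C57BL/6, so strain and the presence of Cre cannot be told apart from genotype in any comparison with wild type. The 3 mutant groups share Cre and the label of a mixed background when set against each other. The strain make-up of a mixed background may still differ between them and was not tested. VHL belongs to a ubiquitin ligase that targets hypoxia-inducible factors for degradation, and PBRM1 is a subunit of the PBAF chromatin remodelling complex.

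Each array carries a number in its description, 2 numbers a genotype, which may mark animals. The descriptions also hold a letter, L or R, and its meaning is not given. If the numbers mark animals, each genotype has 2 animals, and the p-values below measure partly the spread within an animal. The numbers of the Vhl mutants lie above those of all other arrays, and what that reflects is not given and cannot be told apart from genotype. Double mutant replicate 3 went against its number: the SD of its difference over all genes was 0.273 and 0.269 from replicates 1 and 2, which share its number, and 0.228 from replicate 4, which does not. Without this array, 5 of the 33 measured members passed in double mutants against wild type, 10 against Pbrm1 mutants and 9 against Vhl mutants. With it, 3, 11 and 8 passed, and with no number in the model 3, 13 and 10 passed. All genes called without it were 1293 higher and 1005 lower against wild type, 1399 and 658 against Pbrm1 mutants, and 727 and 484 against Vhl mutants. The probe set of Vhl itself lay at 6.08 to 6.51 in double mutants, 6.25 to 6.30 in Vhl mutants, 6.20 to 6.30 in Pbrm1 mutants and 6.23 to 6.55 in wild types, on the deposited log2 scale. The Pbrm1 probe set lay at 8.02 to 8.19 in double mutants, 8.05 to 8.33 in Vhl mutants, 8.15 to 8.24 in Pbrm1 mutants and 8.14 to 8.26 in wild types. Neither gene passed the test in any of the 7 comparisons; where the probes lie relative to the deleted exons is not known here, so these values do not check the labels. The tissue label matched its markers: Slc34a1, the phosphate transporter of the proximal tubule, lay between 12.61 and 12.98 on all 16 arrays.

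As background, type I interferons act through the receptor pair IFNAR1 and IFNAR2 and the kinases JAK1 and TYK2. These phosphorylate STAT2, which joins IRF9 in the ISGF3 complex. ISGF3 binds the interferon-stimulated response element (ISRE) in the promoters of its targets, while interferon gamma acts through a gamma-activated site (GAS). The products include RNA sensors, which can induce more interferon, further transcription factors such as IRF7, proteins that block single steps of viral growth, and the ubiquitin-like modifier ISG15 with the enzymes that attach and remove it. Macrophages, endothelium and tubule cells of the kidney can all express these genes.

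The response element is visible in the members' own promoters, and 6 stretches are shown because they hold it. RefSeq windows of the GRCm38.p6 build, from 250 bases before to 50 bases after a transcript start, were given for 24 of the 33 members and comprised 28 windows. The letters searched for the ISRE were GAAANNGAAA, or TTTCNNTTTC when read from the other strand, in which neighbouring matches may overlap. They occurred in 12 of the 28 members' windows (42.9%), against 3.44% of all 32851 windows. The GAS letters TTCNNNGAA, the same on both strands, occurred in 6 of 28 windows (21.4%), against 8.3% of all windows. Windows of members that passed a test in at least 1 comparison held the ISRE letters in 8 of 20 cases, and those of members that passed none held them in 4 of 8. The first 5 stretches below belong to members that passed a test and hold the letters before the start, and Ifit3, which passed none, was added after its values were seen. They read 5′ to 3′ along the gene, with the ISRE letters in capitals. Rsad2 lies at chr12:26456533-26456602 (minus strand), Ifit1 at chr19:34640755-34640843 (plus), Bst2 at chr8:71537557-71537632 (minus), Gbp3 at chr3:142559969-142560043 (plus), Stat2 at chr10:128270248-128270315 (plus) and Ifit3 at chr19:34583343-34583446 (plus).
Rsad2: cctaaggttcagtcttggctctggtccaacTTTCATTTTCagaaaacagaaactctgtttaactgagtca
Ifit1: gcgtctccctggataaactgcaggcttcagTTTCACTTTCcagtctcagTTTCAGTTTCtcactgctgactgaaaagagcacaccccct
Bst2: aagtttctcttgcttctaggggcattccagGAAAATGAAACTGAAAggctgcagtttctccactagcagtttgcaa
Gbp3: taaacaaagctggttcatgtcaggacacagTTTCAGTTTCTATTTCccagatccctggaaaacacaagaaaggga
Stat2: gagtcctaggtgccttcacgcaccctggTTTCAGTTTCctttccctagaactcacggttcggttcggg
Ifit3: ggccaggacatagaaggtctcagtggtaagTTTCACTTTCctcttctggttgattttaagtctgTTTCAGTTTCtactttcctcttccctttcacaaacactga
The Ifit1 and Ifit3 stretches each hold 2 separate copies, and in Bst2 and Gbp3 the 2 copies overlap. A match of letters is a description of these windows and was not tested as a binding site.

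On the deposited log2 scale the members' means over all arrays ran from 2.72 for Mx1 to 8.97 for Lgals3bp, with a median of 6.12, against a median of 5.22 over all genes. Mx1, whose GTPase product blocks influenza and related viruses, had a mean below 3.72 in all 4 groups, a level that on every array lies at or above the lower quartile of all genes. Isg15 averaged 3.66 in double mutants, 3.91 in Vhl mutants, 3.59 in Pbrm1 mutants, with 3.57 in wild types. Mx2 averaged 4.01 in double mutants, 3.93 in Vhl mutants, 3.67 in Pbrm1 mutants, with 3.79 in wild types. These 3 members may be at background and are given without fold changes.

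Across the 33 members, Vhl mutants had the highest of the 4 group means for 25 members and Pbrm1 mutants the lowest for 26. Over all genes the highest mean fell in Vhl mutants for 22.4% and the lowest in Pbrm1 mutants for 22.5%. The median of the members on each array, as the distance from each gene's wild-type mean, was 0.079, 0.018, 0.046 and 0.060 in the 4 double mutant arrays. It was 0.484, 0.315, 0.195 and 0.232 in Vhl mutants, -0.193, -0.289, -0.138 and -0.247 in Pbrm1 mutants, and 0.021, 0.082, -0.038 and -0.061 in wild types. The 4 Vhl arrays thus lay above all others and the 4 Pbrm1 arrays below all others, while the double mutant arrays lay within the range of wild type. The double mutant mean lay between those of the 2 single mutants for 24 members, below both for 3 and above both for 6. These positions were not counted over all genes, so whether 24 is above the background is not known.

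**Figure D1:**
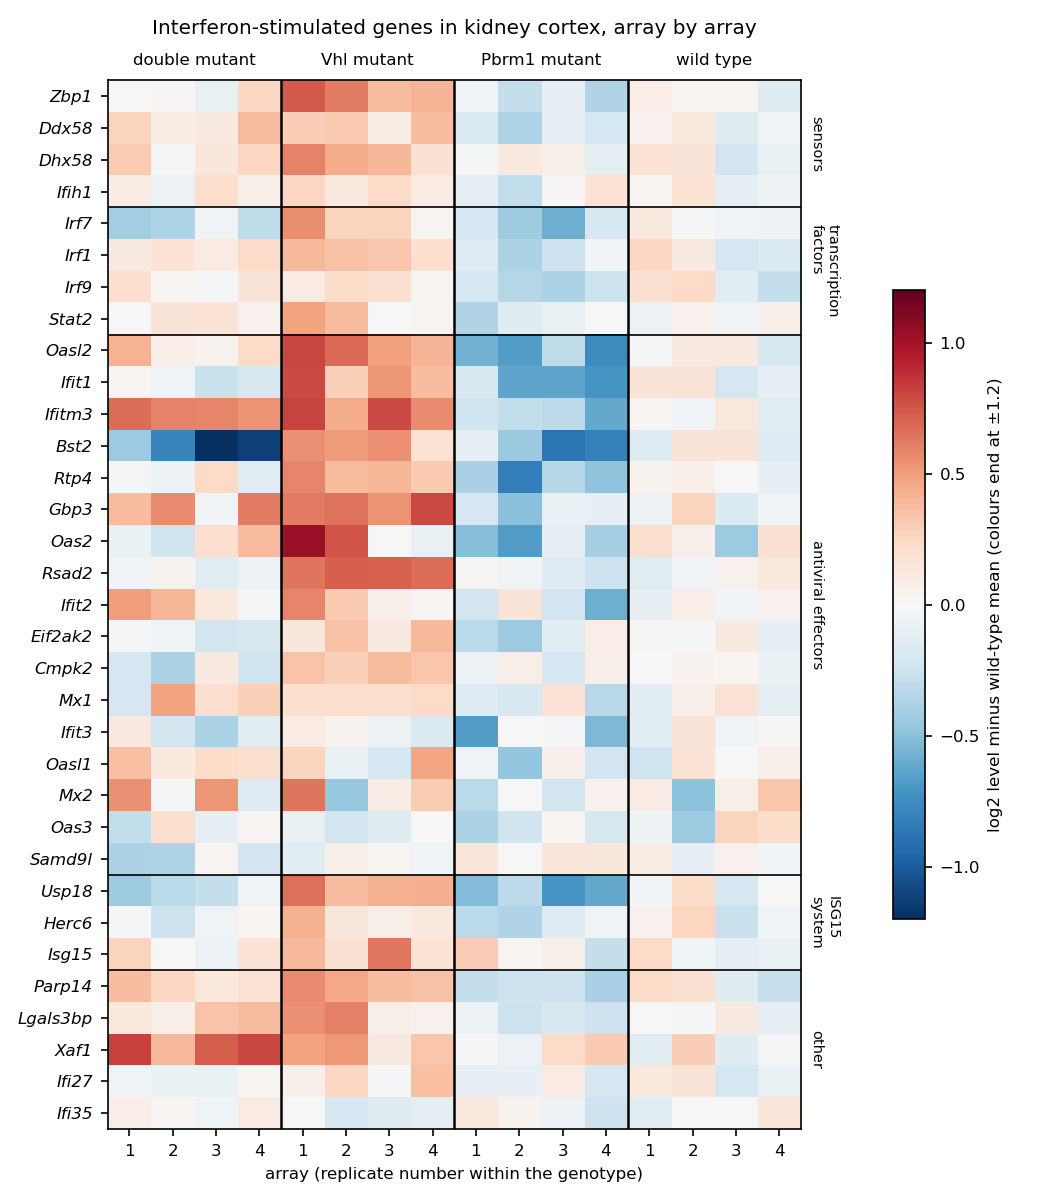
Log2 level of each of the 33 members on each of the 16 arrays minus that gene's wild-type mean, grouped by role down the page and by genotype across it (double mutant, Vhl mutant, Pbrm1 mutant, wild type). Red is above and blue below the wild-type mean; the Vhl columns are mostly red, the Pbrm1 columns mostly blue, and Bst2 is the darkest blue in double mutants.

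Genes were called with limma at a Benjamini-Hochberg adjusted p under 0.05 over all 22180 genes. In Vhl mutants against wild type, 9 of 33 members were higher and 0 lower, while 2.04% of all genes were called higher and 1.79% lower. The members' median log2 fold change was 0.32 against -0.01 over all genes, and 29 of 33 values were above 0. In Pbrm1 mutants against wild type, 5 members were lower and 0 higher, with 2.45% of all genes called lower and 1.59% higher, and the members' median was -0.20 against -0.01. At an unadjusted p under 0.05, 0 members were lower in Vhl mutants and 0 were higher in Pbrm1 mutants. In double mutants against wild type, 2 members were higher and 1 lower; 6.64% of all genes were called higher and 5.56% lower, so these shares of 6.06% and 3.03% were near or below the background. These 3 comparisons share the wild-type arrays. With arrays averaged per description number, fewer members passed in Vhl and in Pbrm1 mutants against wild type, as given in the last section. The count was 5 for double mutants without their replicate 3, 5 for Vhl mutants without their replicate 1 (2 without replicates 1 and 2), and 3 for Pbrm1 mutants without wild-type replicate 1 or Pbrm1 replicate 4 (0 without wild-type replicates 1 and 2).

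In Vhl mutants against Pbrm1 mutants, 20 members were higher and 0 lower (0 at an unadjusted p under 0.05), with 4.71% of all genes called higher and 2.75% lower (1045 and 611 genes), and the median log2 fold change was 0.45. With each array centred on its median, 788 of all genes were higher and 1017 lower in this comparison, and 17 members were called, all of them higher. Double mutants had 10 members higher and 1 lower than Pbrm1 mutants, with 6.82% and 3.37% of all genes called in those directions and a median of 0.28. Double mutants had 0 members higher and 8 lower than Vhl mutants, with 3.8% and 2.55% of all genes called, and a median of -0.21. In the double mutant against Vhl comparison, 1 member was higher at an unadjusted p under 0.05. The interaction asks how far the combined loss departs from adding the changes of the single mutants. It passed for 1 member, Rsad2, below 0 and for 0 above it (1 at an unadjusted p under 0.05), with 0.852% and 1.78% of all genes called, and the members' median was 0.04. Without Vhl replicates 1 and 2 the counts were 12 for Vhl against Pbrm1 mutants and 5 for double against Vhl mutants, and without double mutant replicate 3 the interaction passed for 2. The split of all genes moved with the scaling in 4 other comparisons. Centring gave 355 higher and 622 lower in Vhl mutants against wild type (453 and 398 as reported), and 1193 higher and 1079 lower in double against Pbrm1 mutants (1513 and 747). Quantile normalization gave 1339 and 1059 in the double against Pbrm1 comparison, 719 and 779 in double against Vhl mutants (842 and 566), and 296 and 275 for the interaction (394 and 189).

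**Figure D2:**
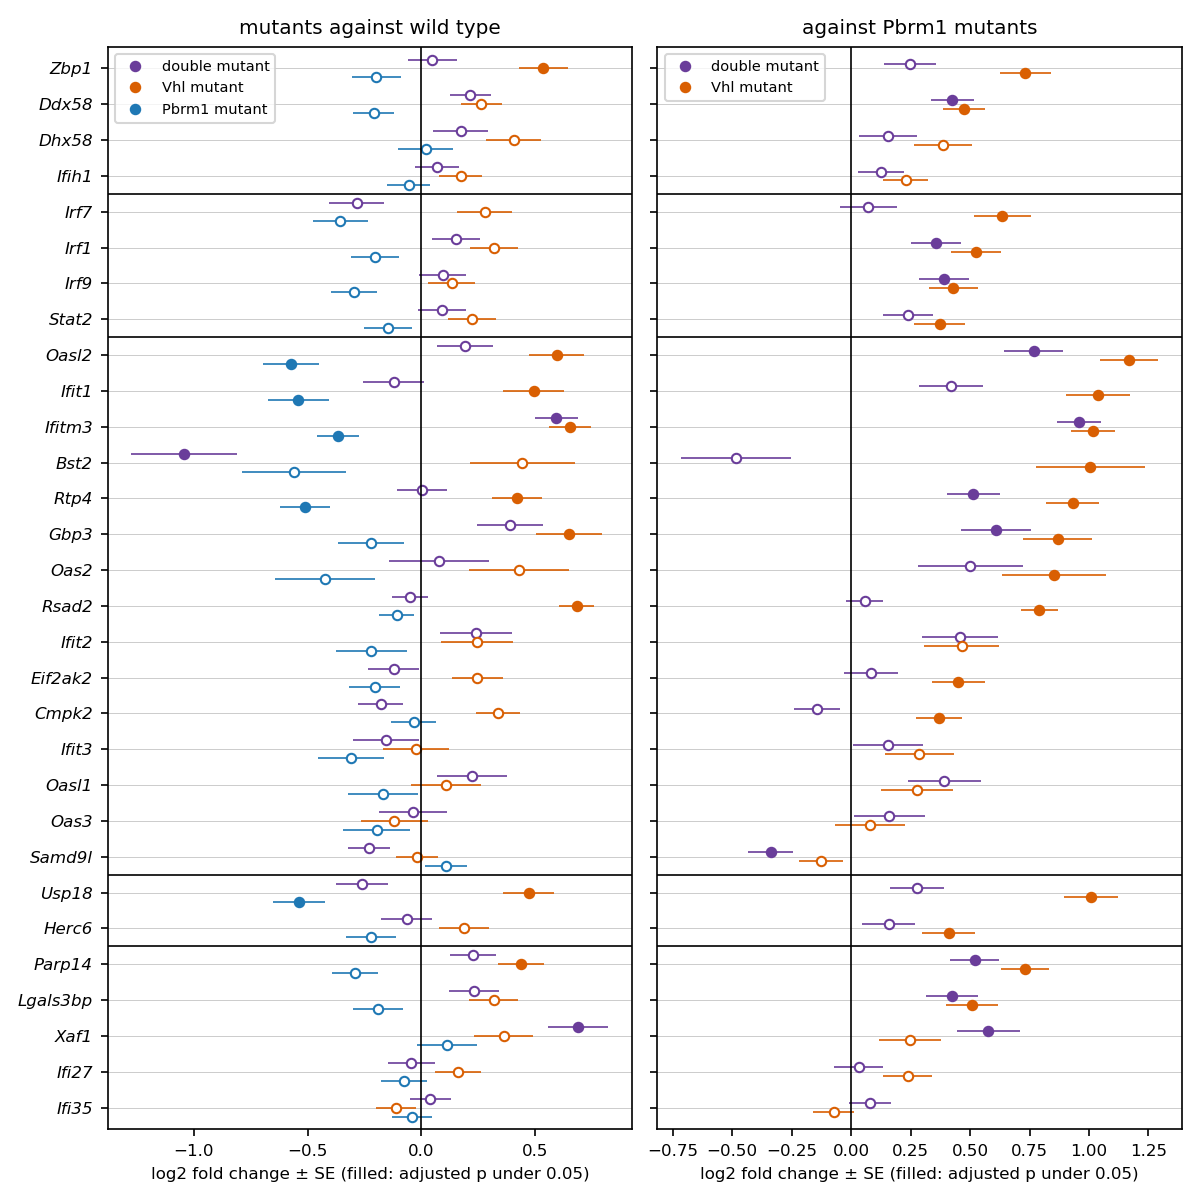
Log2 fold change and its standard error (bars) from the limma fit for the 30 members above background, against wild type on the left (double, Vhl and Pbrm1 mutants) and against Pbrm1 mutants on the right (double and Vhl mutants); filled points have an adjusted p under 0.05. Filled Vhl points lie right of 0 in both panels and filled Pbrm1 points left of it.

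Markers of some other cells differed between these groups, and not always as the members did. The shares of all genes called higher and lower against wild type were 6.64% and 5.56% in double mutants. They were 2.04% and 1.79% in Vhl mutants and 1.59% and 2.45% in Pbrm1 mutants. Of 13 macrophage markers, 7 were higher in double mutants and 11 in Vhl mutants than in wild type, with 0 lower, and in Pbrm1 mutants 1 was higher and 0 lower. The summed linear level of the 13 ranged over 1537 to 1859 in double mutants, 1459 to 2022 in Vhl mutants, 920 to 1000 in Pbrm1 mutants and 941 to 1148 in wild types, and none of the 13 had a group mean below 3.72. Lyz2, the lysozyme of macrophages, was 1.24 (log2) higher in double mutants and 1.38 higher in Vhl mutants than in wild type. Endothelial markers were higher for 4 of 8 in double mutants and 4 of 8 in Vhl mutants, and 1 of 8 was lower in Pbrm1 mutants. Collecting duct markers were lower than in wild type for 6 of 7 in double mutants, 3 of 7 in Vhl mutants and 1 of 7 in Pbrm1 mutants, with medians of -0.90, -0.41 and -0.14. Proximal tubule markers were lower for 3 of 7 in double mutants and 1 of 7 in Vhl mutants. Distal convoluted tubule markers were lower for 2 of 4 in double mutants and 1 of 4 in Pbrm1 mutants. Of 5 thick ascending limb markers, 2 were higher and 2 lower in double mutants, and 1 was lower in Vhl mutants. None of the 11 T and NK cell, 5 neutrophil or 3 podocyte markers passed in any mutant group against wild type. Double mutants had macrophage markers raised against wild type and members near it, whereas Vhl mutants had both raised. Set against Vhl mutants, double mutants had 1 of the 13 macrophage markers higher and 2 lower, with a median of -0.14. Of all genes, 3.8% were higher and 2.55% lower in that comparison. The part of macrophages, endothelium or tubule segments in the members' levels was not tested. In whole cortex, more or fewer cells of a type and more or less RNA per cell cannot be told apart.

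**Figure D3:**
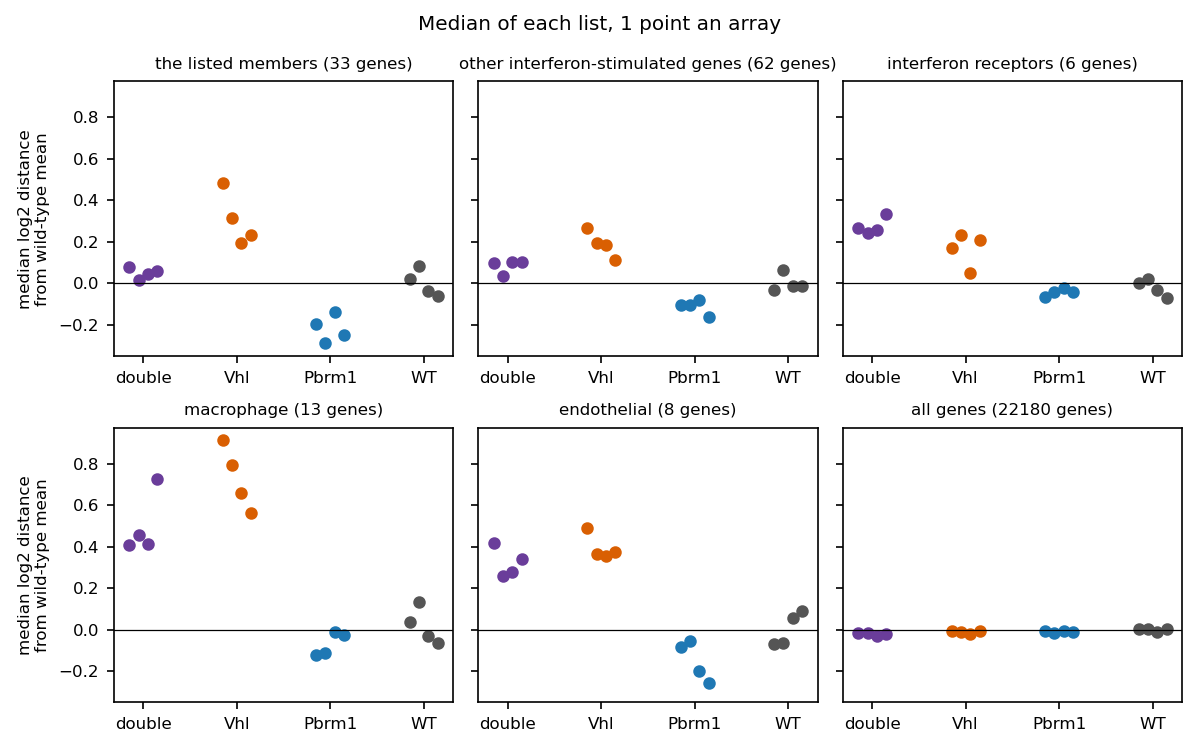
Median log2 distance from the wild-type mean over each list of genes, 1 point an array, for double mutants, Vhl mutants, Pbrm1 mutants and wild types. The members separate Vhl from Pbrm1 mutants with double mutants near 0, the macrophage and endothelial lists are raised in double as well as in Vhl mutants, and the median of all genes stays between -0.027 and 0.006.

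Among the 4 sensors of foreign nucleic acid, Zbp1 and Ddx58 passed a test. Zbp1, which binds left-handed nucleic acid and can trigger necroptosis, had log2 levels of 5.77, 5.79, 5.68 and 6.02 in double mutants, 6.51, 6.39, 6.16 and 6.19 in Vhl mutants, 5.73, 5.49, 5.68 and 5.41 in Pbrm1 mutants and 5.85, 5.81, 5.81 and 5.63 in wild types. All 4 Vhl arrays were above all 12 others. The limma log2 fold change of Vhl mutants over wild type was 0.54 ± 0.11 (SE, adjusted p = 0.00623), and double mutants fell below Vhl mutants by 0.49 ± 0.11 (limma adjusted p = 0.00804). Ddx58 encodes RIG-I, the sensor of uncapped viral RNA, and had log2 levels of 7.39, 7.22, 7.23 and 7.50 in double mutants, 7.42, 7.44, 7.21 and 7.49 in Vhl mutants, 6.96, 6.76, 7.03 and 6.92 in Pbrm1 mutants and 7.18, 7.24, 6.98 and 7.10 in wild types. Pbrm1 arrays lay below all double mutant and Vhl arrays and overlapped wild type. Ddx58 was higher than in Pbrm1 mutants by 0.42 ± 0.09 in double mutants (limma adjusted p = 0.00327) and by 0.47 ± 0.09 in Vhl mutants (limma adjusted p = 0.00149). Dhx58 (LGP2, a regulator of both RNA sensors) and Ifih1 (MDA5, the sensor of long double-stranded RNA) passed no test; their group means ran from 4.51 to 4.92 and from 7.21 to 7.44.

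The 4 transcription factors, Irf1, Irf7, Irf9 and Stat2, were each higher in Vhl than in Pbrm1 mutants, beside 4.71% of all genes. None of the 4 passed in any mutant group against wild type. Irf7, which amplifies type I interferon production, had log2 levels of 5.81, 5.85, 6.18 and 5.91 in double mutants, 6.78, 6.48, 6.49 and 6.25 in Vhl mutants, 6.02, 5.79, 5.63 and 6.02 in Pbrm1 mutants and 6.33, 6.21, 6.18 and 6.16 in wild types. Vhl arrays lay above both other mutant groups, and 3 of 4 wild types lay below the Vhl range, with replicate 1 within it. Irf7 was lower in double than in Vhl mutants by a log2 value of 0.56 ± 0.12 (limma adjusted p = 0.00603) and higher in Vhl than in Pbrm1 mutants by 0.64 ± 0.12 (limma adjusted p = 0.00147). Irf1, a factor of the interferon gamma response, averaged 5.93 ± 0.06 in double mutants, 6.10 ± 0.08 in Vhl mutants, 5.58 ± 0.15 in Pbrm1 mutants, with 5.78 ± 0.21 in wild types (SD, n = 4 each). Irf9, the DNA-binding subunit of ISGF3, averaged 6.97 ± 0.11 in double mutants, 7.01 ± 0.08 in Vhl mutants, 6.58 ± 0.08 in Pbrm1 mutants, with 6.88 ± 0.25 in wild types (SD, n = 4 each). Its wild-type arrays fell into the 2 description numbers, at 7.06 and 7.12 for replicates 1 and 2 against 6.74 and 6.59 for replicates 3 and 4. Stat2, also a subunit of ISGF3, was higher in Vhl than in Pbrm1 mutants by 0.37 ± 0.11 (limma adjusted p = 0.033). That call was lost without any 1 of 5 arrays, Vhl replicates 1 and 2 and Pbrm1 replicates 1, 2 and 3, with limma adjusted p up to 0.11.

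Among the 17 antiviral effectors, 6 were higher in Vhl mutants and 4 lower in Pbrm1 mutants than in wild type. In Vhl against Pbrm1 mutants, 10 were higher. These shares were 35.3%, 23.5% and 58.8%, beside 2.04%, 2.45% and 4.71% of all genes. Rsad2 encodes viperin, which makes a chain-terminating nucleotide. It had log2 levels of 6.78, 6.86, 6.69 and 6.74 in double mutants, 7.46, 7.53, 7.52 and 7.49 in Vhl mutants, 6.83, 6.78, 6.67 and 6.57 in Pbrm1 mutants and 6.68, 6.78, 6.87 and 6.95 in wild types. The Vhl arrays stood clear above the 12 others, which overlapped. Rsad2 rose 1.61-fold in Vhl mutants over wild type (log2 fold change 0.68 ± 0.08 SE, limma adjusted p = 2.62e-05) and was 0.73 ± 0.08 lower in double than in Vhl mutants (limma adjusted p = 3.4e-06). Its interaction was -0.63 ± 0.11 (limma adjusted p = 0.00364), so the double mutant lay below the sum of the single effects. With the arrays averaged by description number the interaction no longer passed (limma adjusted p = 0.095). Cmpk2, a nucleotide kinase gene that lies close to Rsad2 on chromosome 12, had log2 levels of 6.35, 6.17, 6.66 and 6.31 in double mutants, 6.88, 6.83, 6.93 and 6.88 in Vhl mutants, 6.47, 6.62, 6.34 and 6.61 in Pbrm1 mutants and 6.55, 6.59, 6.57 and 6.47 in wild types. Its Vhl arrays were also above all others, and double mutants were 0.51 ± 0.10 lower than Vhl mutants (limma adjusted p = 0.00229). Against wild type the Cmpk2 difference in Vhl mutants, 0.34 ± 0.10, did not pass (limma adjusted p = 0.0586).

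Ifitm3, whose product blocks fusion of enveloped viruses in endosomes, had log2 levels of 8.96, 8.88, 8.87 and 8.82 in double mutants, 9.10, 8.73, 9.08 and 8.85 in Vhl mutants, 8.05, 7.99, 7.97 and 7.68 in Pbrm1 mutants and 8.31, 8.26, 8.41 and 8.16 in wild types. The double and Vhl arrays overlapped and lay above wild type, and all Pbrm1 arrays lay below it. Ifitm3 was 1.51-fold higher in double mutants (log2 fold change 0.59 ± 0.09 SE, limma adjusted p = 0.000169) and 1.57-fold higher in Vhl mutants than in wild type (0.65 ± 0.09, limma adjusted p = 0.000239). It fell by 0.36 ± 0.09 in Pbrm1 mutants (limma adjusted p = 0.0291), a call lost without wild-type replicate 1 or 3 or Pbrm1 replicate 4 (limma adjusted p up to 0.095). Its fold change of double over Vhl mutants was -0.06 (limma adjusted p = 0.80). Ifitm3 and Xaf1 were the only members higher in double mutants than in wild type at the adjusted threshold.

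Oasl2, an oligoadenylate synthetase-like protein, differed in both single mutants. Its log2 levels were 6.34, 6.00, 5.97 and 6.15 in double mutants, 6.72, 6.60, 6.42 and 6.33 in Vhl mutants, 5.36, 5.25, 5.62 and 5.16 in Pbrm1 mutants and 5.90, 6.03, 6.03 and 5.73 in wild types. Pbrm1 arrays were below and Vhl arrays above every wild-type array, and double mutants overlapped wild type. Oasl2 was 0.60 ± 0.12 higher in Vhl mutants (limma adjusted p = 0.00717) and fell by 0.57 ± 0.12 in Pbrm1 mutants (limma adjusted p = 0.00868), each against wild type. Between Vhl and Pbrm1 mutants the difference was 2.25-fold, the widest among the members in that comparison (log2 1.17 ± 0.12, limma adjusted p = 2.22e-06). Ifit1, which binds viral RNA that lacks the host's cap methylation, had log2 levels of 6.10, 6.01, 5.79 and 5.87 in double mutants, 6.86, 6.34, 6.59 and 6.44 in Vhl mutants, 5.87, 5.43, 5.43 and 5.36 in Pbrm1 mutants and 6.22, 6.22, 5.85 and 5.97 in wild types. Vhl arrays lay above wild type, while Pbrm1 replicate 1 lay within the wild-type range. Ifit1 was 0.50 ± 0.13 higher in Vhl mutants than in wild type (limma adjusted p = 0.0424). That call was lost without any 1 of 8 arrays (wild-type replicates 1, 3 and 4, double mutant replicates 2 and 3, Pbrm1 replicate 3, Vhl replicates 1 and 3; limma adjusted p up to 0.13). Its fall of 0.54 ± 0.13 in Pbrm1 mutants (limma adjusted p = 0.0244) was lost without any 1 of 5 (wild-type replicates 1 and 2, Pbrm1 replicates 2, 3 and 4; limma adjusted p up to 0.076). The Ifit1 difference between Vhl and Pbrm1 mutants, 1.04 ± 0.13, kept its call without any single array (limma adjusted p = 2.7e-05 with all).

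Rtp4, a receptor transporter with antiviral activity, followed the same order. Its log2 levels were 6.19, 6.15, 6.44 and 6.08 in double mutants, 6.80, 6.58, 6.61 and 6.52 in Vhl mutants, 5.82, 5.38, 5.86 and 5.73 in Pbrm1 mutants and 6.25, 6.27, 6.21 and 6.10 in wild types. The 3 levels were separate: Vhl arrays on top, double mutants and wild types together, Pbrm1 arrays below. Rtp4 fell by 0.51 ± 0.11 in Pbrm1 mutants (limma adjusted p = 0.00979) and its rise in Vhl mutants was 0.42 ± 0.11 (limma adjusted p = 0.0366), each against wild type. Its rise was lost without any wild-type replicate or Vhl replicate 1, 2 or 3 (limma adjusted p up to 0.10). Gbp3, a guanylate-binding GTPase, had log2 levels of 5.03, 5.21, 4.61 and 5.26 in double mutants, 5.27, 5.29, 5.18 and 5.44 in Vhl mutants, 4.45, 4.15, 4.56 and 4.55 in Pbrm1 mutants and 4.59, 4.92, 4.48 and 4.60 in wild types. Double mutant replicate 3 lay near wild type and the other 3 double mutant arrays near the Vhl mutants. Gbp3 was 0.65 ± 0.15 higher in Vhl mutants than in wild type (limma adjusted p = 0.0133) and 0.61 ± 0.15 higher in double than in Pbrm1 mutants (limma adjusted p = 0.00824).

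Bst2, or tetherin, which holds budding virus at the cell surface, was low in double mutants. It is also used as a marker of mouse plasmacytoid dendritic cells. Its log2 levels were 5.21, 4.85, 3.82 and 4.52 in double mutants, 6.19, 6.15, 6.19 and 5.81 in Vhl mutants, 5.53, 5.20, 4.77 and 4.83 in Pbrm1 mutants and 5.48, 5.80, 5.79 and 5.49 in wild types. All double mutant arrays were below all wild-type arrays, with a spread (SD 0.59) wider than in the other groups. Bst2 was 2.06-fold lower in double mutants than in wild type (log2 fold change -1.04 ± 0.23, limma adjusted p = 0.00414) and 2.81-fold lower than in Vhl mutants (-1.49 ± 0.23, limma adjusted p = 0.000318). In Pbrm1 mutants against wild type it was -0.56 ± 0.23, which did not pass (limma adjusted p = 0.21), and its interaction of -0.93 did not pass either (limma adjusted p = 0.15). Of 5 markers of plasmacytoid dendritic cells, which include Bst2, 1 was higher and 1, Bst2 itself, was lower in double mutants than in wild type. These are single genes, beside 6.64% and 5.56% of all genes. In Vhl mutants 0 of the 5 passed (1 at an unadjusted p under 0.05 in limma).

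Of the remaining effectors, Eif2ak2, Oas2 and Samd9l passed a test. Eif2ak2, the kinase PKR that stops translation on double-stranded RNA, was 0.45 ± 0.11 higher in Vhl than in Pbrm1 mutants (limma adjusted p = 0.014), a call lost without Pbrm1 replicate 2 (limma adjusted p = 0.053). Oas2, which makes the activator of RNase L, was 0.85 ± 0.22 higher in the same comparison (limma adjusted p = 0.0181). Its Vhl arrays read 6.15 and 5.86 for replicates 1 and 2 against 5.12 and 5.02 for replicates 3 and 4, and the call was lost without either of the first 2 or Pbrm1 replicate 2 (limma adjusted p up to 0.069). Samd9l, a restrainer of growth and translation, was the only member lower in double than in Pbrm1 mutants (log2 fold change -0.34 ± 0.09, limma adjusted p = 0.0217). That difference was lost without any 1 of 5 arrays, double mutant replicates 1 and 2 and Pbrm1 replicates 1, 3 and 4 (limma adjusted p up to 0.069). Ifit2, Ifit3, Oasl1 and Oas3 passed no test, with group means of 4.58 to 5.04, 6.17 to 6.48, 4.86 to 5.25 and 4.45 to 4.64. Ifit2 and Ifit3 lie close to Ifit1 on chromosome 19, and Oas3 lies close to Oas2 on chromosome 5.

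**Figure D4:**
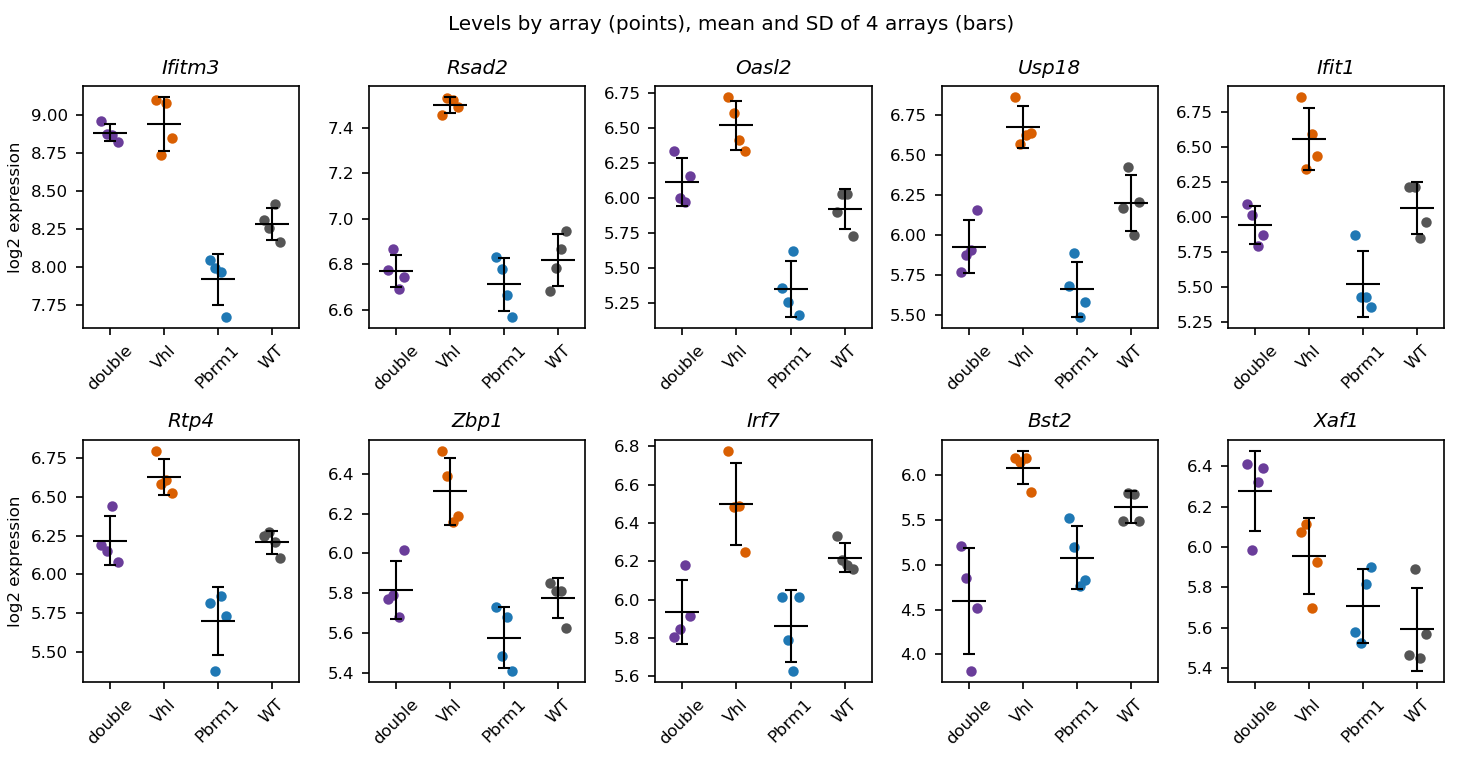
Log2 expression of 10 members on each array (points), with the mean and SD of 4 arrays (bars), in double mutants, Vhl mutants, Pbrm1 mutants and wild types. Rsad2 is raised in Vhl mutants alone, Ifitm3 in double and Vhl mutants, Xaf1 most in double mutants, and Bst2 is lowest in double mutants.

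Of the ISG15 system, Usp18 moved in both single mutants. Usp18 removes ISG15 from its targets and also blocks signalling at the IFNAR2 receptor chain. Its log2 levels were 5.77, 5.88, 5.91 and 6.16 in double mutants, 6.86, 6.57, 6.63 and 6.64 in Vhl mutants, 5.68, 5.89, 5.49 and 5.58 in Pbrm1 mutants and 6.17, 6.42, 6.00 and 6.21 in wild types. Vhl arrays lay above all others, Pbrm1 arrays lay below wild type, and double mutants overlapped both Pbrm1 mutants and wild types. Usp18 was 0.47 ± 0.11 higher in Vhl mutants than in wild type (limma adjusted p = 0.0212), a call lost without wild-type replicate 1 or 3 or Vhl replicate 1 (limma adjusted p up to 0.069). It fell by 0.54 ± 0.11 in Pbrm1 mutants (limma adjusted p = 0.00809), and it was 0.73 ± 0.11 lower in double than in Vhl mutants (limma adjusted p = 0.000332). Herc6, the ISG15 ligase of mice, was 0.41 ± 0.11 higher in Vhl than in Pbrm1 mutants (limma adjusted p = 0.0243). That call was lost without Vhl replicate 1 or Pbrm1 replicate 1 or 2 (limma adjusted p up to 0.085).

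The 5 other members were Parp14, Lgals3bp, Xaf1, Ifi27 and Ifi35. Parp14, an ADP-ribosyltransferase, had log2 levels of 7.15, 7.03, 6.91 and 6.96 in double mutants, 7.35, 7.25, 7.16 and 7.13 in Vhl mutants, 6.49, 6.54, 6.53 and 6.39 in Pbrm1 mutants and 7.01, 6.97, 6.64 and 6.51 in wild types. Wild-type replicates 1 and 2 lay near the double mutants and replicates 3 and 4 near the Pbrm1 mutants. Parp14 was 0.44 ± 0.10 higher in Vhl mutants than in wild type (limma adjusted p = 0.0163; 0.051 without Vhl replicate 1) and 0.52 ± 0.10 higher in double than in Pbrm1 mutants (limma adjusted p = 0.00155). Xaf1, which antagonizes the apoptosis inhibitor XIAP, had log2 levels of 6.41, 5.99, 6.32 and 6.39 in double mutants, 6.07, 6.12, 5.70 and 5.93 in Vhl mutants, 5.58, 5.52, 5.82 and 5.90 in Pbrm1 mutants and 5.46, 5.89, 5.45 and 5.57 in wild types. Double mutant arrays lay above all wild-type and Pbrm1 arrays and overlapped the Vhl arrays. Xaf1 was 1.61-fold higher in double mutants than in wild type (log2 fold change 0.69 ± 0.13, limma adjusted p = 0.00124), and its value in Vhl mutants, 0.36 ± 0.13, did not pass (limma adjusted p = 0.15). Lgals3bp, a secreted galectin-binding glycoprotein, was higher than in Pbrm1 mutants by 0.42 ± 0.11 in double mutants (limma adjusted p = 0.0151; 0.066 without double mutant replicate 4) and by 0.51 ± 0.11 in Vhl mutants (limma adjusted p = 0.00469). Ifi27 and Ifi35 passed no test, with group means of 6.57 to 6.80 and 6.73 to 6.88.

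Upstream of the members, 20 interferon ligand genes were measured, and 10 had a mean below 3.72 in each group. Ifnl2, an interferon lambda, was among those above it, at 6.64 in double mutants, 6.73 in Vhl mutants, 7.03 in Pbrm1 mutants, with 6.70 in wild types. Ifnb1 averaged 2.51 in double mutants, 2.55 in Vhl mutants, 2.86 in Pbrm1 mutants, with 2.57 in wild types. Ifng averaged 3.73 in double mutants, 3.89 in Vhl mutants, 3.83 in Pbrm1 mutants, with 3.87 in wild types. Ifna4 was called lower in double mutants (log2 fold change -0.89) and in Pbrm1 mutants (-0.87) than in wild type, but the Ifna genes are near-identical copies that probes may not separate. Of 6 receptor genes, 4 were higher in double mutants and 2 in Vhl mutants than in wild type. In Pbrm1 mutants 0 were higher (1 at an unadjusted p under 0.05 in limma). The shares called higher were 66.7% in double and 33.3% in Vhl mutants, beside 6.64% and 2.04% of all genes. Ifngr1, a chain of the interferon gamma receptor, had log2 levels of 8.54, 8.55, 8.65 and 8.65 in double mutants, 8.68, 8.79, 8.77 and 8.73 in Vhl mutants, 8.35, 8.38, 8.26 and 8.35 in Pbrm1 mutants and 8.50, 8.34, 8.43 and 8.31 in wild types. Its double and Vhl arrays lay above every wild-type array. Ifngr1 was higher than in wild type by 0.20 ± 0.06 in double mutants (limma adjusted p = 0.0321) and by 0.35 ± 0.06 in Vhl mutants (limma adjusted p = 0.00183). Ifnar2 was higher than in wild type by 0.34 ± 0.07 in double mutants (limma adjusted p = 0.0026) and by 0.27 ± 0.07 in Vhl mutants (limma adjusted p = 0.0346). Ifngr2 (0.39) and Ifnlr1 (0.41) were higher in double mutants, and Ifnar1 and Il10rb passed in no mutant group against wild type.

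In the signalling chain, 4 further kinase and STAT genes were measured. Of these, Stat3, which acts mainly downstream of interleukin 6 cytokines, was 0.65 ± 0.06 higher in double mutants than in wild type (limma adjusted p = 7.01e-07), and Jak2 was 0.44 ± 0.09 higher (limma adjusted p = 0.0014). Jak2 was also 0.33 ± 0.09 higher in Pbrm1 mutants than in wild type (limma adjusted p = 0.0303). Of 19 genes of sensing and induction outside the list, 2 were higher and 1 lower in double mutants than in wild type. In Vhl mutants 3 were higher and 1 lower, and in Pbrm1 mutants 3 were lower. The double mutant shares of 10.5% and 5.26% were near the background of 6.64% and 5.56% of all genes. In Vhl mutants the shares were 15.8% and 5.26%, beside 2.04% and 1.79% of all genes. The share called lower in Pbrm1 mutants was 15.8%, beside 2.45%. Sting1, the adaptor of cytosolic DNA sensing, had log2 levels of 6.48, 6.62, 6.15 and 6.78 in double mutants, 6.12, 5.88, 5.90 and 5.59 in Vhl mutants, 4.98, 4.38, 4.74 and 4.55 in Pbrm1 mutants and 5.06, 5.13, 4.91 and 5.10 in wild types. Double and Vhl arrays lay above every wild-type array. Sting1 was 2.77-fold higher in double mutants than in wild type (log2 1.47 ± 0.15, limma adjusted p = 9.57e-07), 1.77-fold higher in Vhl mutants (0.82 ± 0.15, limma adjusted p = 0.00269), and its interaction was 1.03 ± 0.21 (limma adjusted p = 0.0114). Mavs, the adaptor of RIG-I and MDA5, was lower than in wild type by similar amounts in all mutants (log2 fold change -0.33 in double, -0.31 in Vhl and -0.38 in Pbrm1 mutants).

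A further list of 62 interferon-stimulated genes outside the 36 members had 5 higher and 1 lower in double mutants, 9 higher in Vhl mutants and 1 lower in Pbrm1 mutants, each against wild type, and 21 higher and 0 lower in Vhl against Pbrm1 mutants. The shares called higher were 8.06% in double mutants and 14.5% in Vhl mutants, beside 6.64% and 2.04% of all genes, and 33.9% in Vhl against Pbrm1 mutants, beside 4.71%. The share called lower was 1.61% both in double and in Pbrm1 mutants, beside 5.56% and 2.45% of all genes, so the shares in these 2 groups were near or below the background. Its median log2 fold changes were 0.09 in double mutants, 0.19 in Vhl mutants and -0.10 in Pbrm1 mutants over wild type, and 0.30 in Vhl over Pbrm1 mutants. Slfn2, a regulator of immune cell quiescence, was 0.45 higher in double mutants and 0.55 higher in Vhl mutants than in wild type. Gbp9 was 0.91 ± 0.12 higher in Vhl than in Pbrm1 mutants (limma adjusted p = 4.98e-05). Ifi44l was near background outside the double mutants: its log2 levels were 4.45, 3.97, 5.58 and 5.02 in double mutants, 2.82, 2.77, 2.81 and 2.49 in Vhl mutants, 2.52, 2.57, 2.60 and 2.61 in Pbrm1 mutants and 2.88, 2.86, 2.91 and 2.75 in wild types. It was above the background level in double mutants alone (limma adjusted p = 7.51e-06 against wild type).

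Of 25 genes that respond to interferon gamma, 7 were higher and 3 lower in double mutants than in wild type. In Vhl mutants 5 were higher, and in Pbrm1 mutants 1 was higher and 1 lower. The double mutant shares were 28% and 12%, beside 6.64% and 5.56% of all genes. The share called higher in Vhl mutants was 20%, beside 2.04%. In Pbrm1 mutants the shares were 4% each way, a single gene, beside 1.59% higher and 2.45% lower. Of 4 immunity-related GTPases, which attack the vacuoles of intracellular parasites, Irgm2 and Igtp were among the lower genes in double mutants and Irgm2 in Pbrm1 mutants. Irgm1 (log2 fold change -0.26 in double and -0.35 in Pbrm1 mutants) and Iigp1 (-0.27 in double and -0.07 in Pbrm1 mutants) did not pass against wild type. Irgm2 had log2 levels of 6.13, 6.20, 5.97 and 6.26 in double mutants, 7.28, 7.28, 7.25 and 7.14 in Vhl mutants, 6.38, 6.71, 6.19 and 6.09 in Pbrm1 mutants and 7.45, 7.40, 6.78 and 6.64 in wild types. Double mutant arrays lay below every wild-type array, while Pbrm1 replicate 2 (6.71) lay above wild-type replicate 4 (6.64). The wild types split by description number. Irgm2 was 0.92 ± 0.16 lower in double mutants (limma adjusted p = 0.000391) and 0.72 ± 0.16 lower in Pbrm1 mutants (limma adjusted p = 0.01) than in wild type. Igtp, of the same family, was 0.77 ± 0.18 lower in double mutants than in wild type (limma adjusted p = 0.00583). Iigp1 was 1.03 ± 0.23 lower in double than in Vhl mutants (limma adjusted p = 0.00779). In the same double mutants H2-Aa, a chain of MHC class II, was 1.18 higher than in wild type (limma adjusted p = 3.33e-08).

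**Figure D5:**
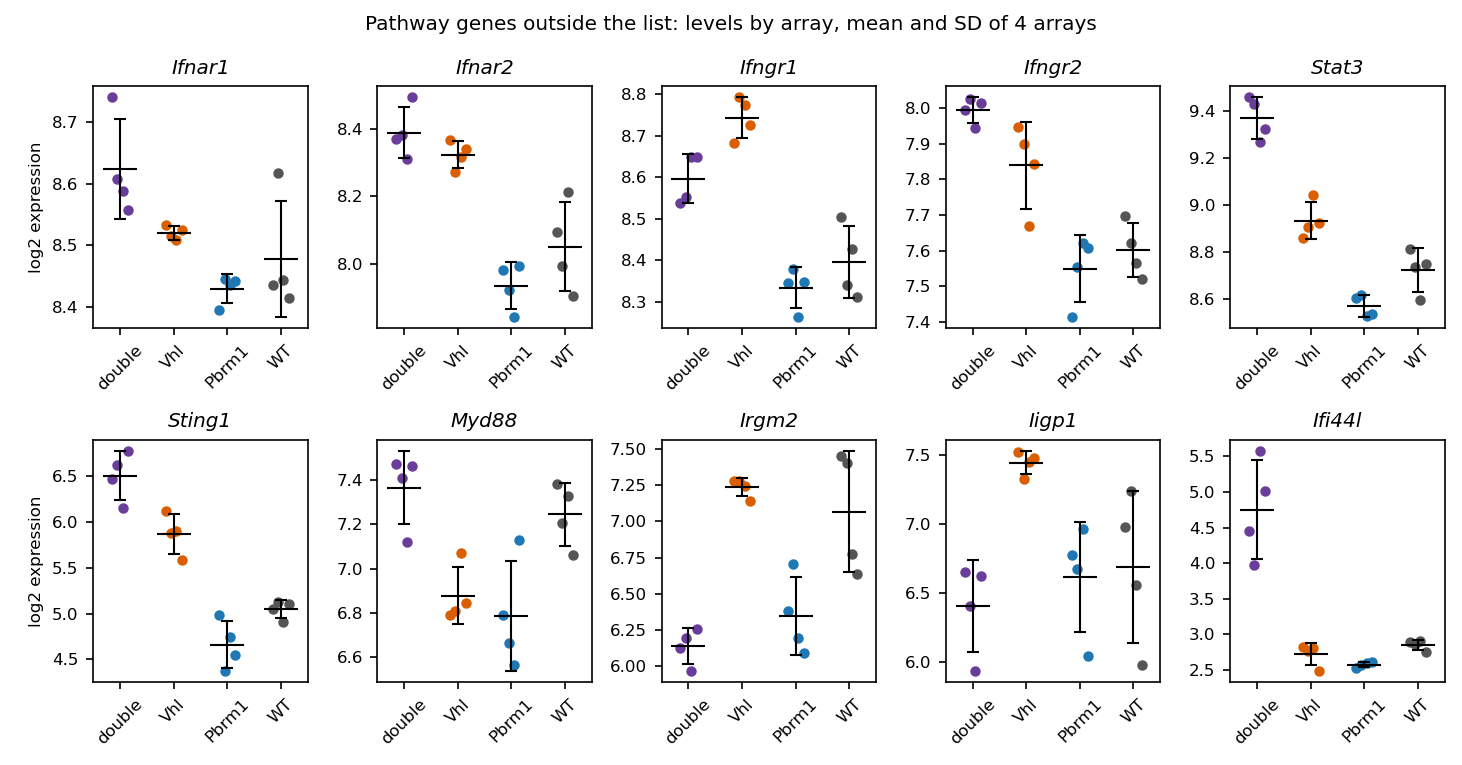
Log2 expression of 10 genes of the interferon pathway outside the 36 members on each array (points), with the mean and SD of 4 arrays (bars), in double mutants, Vhl mutants, Pbrm1 mutants and wild types. Sting1 and Stat3 are highest in double mutants, Irgm2 is low in double and Pbrm1 mutants, and Ifi44l is above 3.72 in double mutants alone.

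Within a genotype the members varied slightly more than other genes: their median SD over 4 arrays was 0.147 in double mutants, 0.164 in Vhl mutants, 0.170 in Pbrm1 mutants, with 0.146 in wild types, while over all genes it was 0.128 in double mutants, 0.135 in Vhl mutants, 0.126 in Pbrm1 mutants, with 0.137 in wild types. Of the 57 calls made on members over the 7 comparisons, which covered 22 members, 41 kept their side of the threshold when any single array was left out. Adipose markers were raised on Pbrm1 replicate 3, double mutant replicate 3 and Vhl replicate 2. Without these 3 arrays the members called, in either direction, were 5 in double mutants, 8 in Vhl mutants and 3 in Pbrm1 mutants against wild type. In Vhl against Pbrm1 mutants 14 were called. All genes called against wild type were then 1147 higher and 876 lower in double mutants, 321 and 243 in Vhl mutants, and 200 and 301 in Pbrm1 mutants. In Vhl against Pbrm1 mutants they were 743 and 390.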

How the data were processed

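Total RNA of kidney cortex was hybridized to 16 Affymetrix mouse arrays, 4 in each of 4 genotypes taken from the labels. Per the submitters' processing notes, the authors used Affymetrix Expression Console 1.4 and RMA, and the deposited values are log2 expression. Of 41345 probe sets, 23521 have 1 gene symbol in the platform annotation, and 1 per gene was kept (highest mean), which left 22180 genes; 1814 with several symbols and 16010 not listed were left out. No expression filter was applied. The model (limma 3.58.1, R 4.3.3) had the 4 genotypes as fixed effects, the description number as a random block (correlation 0.0838) and a mean-dependent prior variance. Calls were made at a Benjamini-Hochberg adjusted p under 0.05 over all genes. Fold changes come from this fit and differ slightly from differences of means. On simulated data, 97.5% of 200 planted 2-fold changes in Vhl mutants against wild type were recovered among 22180 genes. Of the calls, 6.7% were not planted. The simulated noise was independent between arrays, with no part shared by a description number. The largest member change in that comparison was a log2 value of 0.68 (Rsad2), below the planted size. Recovery at the members' sizes was therefore not measured. Precision is limited by how many arrays there are, and the median SE was 0.115 for Vhl mutants against wild type.

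The members and lists were chosen with earlier results of these data known. Of 165 listed pathway genes, 146 were found. Values are given array by array for the 14 called members of smallest adjusted p, by group for the others, and for up to 4 called genes of each other list and comparison, plus interferon ligands and receptors. Genes with a group mean below 3.72, the highest lower quartile of an array, are given as levels. Double mutant replicates 2 and 3 carry the same description but differed by more (SD of the difference 0.269) than the pairs of 1 number without replicate 3 (0.210 to 0.251), so both were kept as separate arrays. Replicate numbers do not pair the samples: the deviations of 24 same-numbered pairs correlated at -0.074 to 0.059. Promoter windows came from RefSeq (GRCm38.p6); the array's own build is not given in the sources used here. The alternatives tried included other normalizations, blocks, filters and arrays left out.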

Additional observations from a re-analysis of the deposited data

Results flagged for a closer look

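In 4 sets of 4 arrays, 1 array lay far from the other 3 by Dixon's gap test. Ifit1 read 5.87 on Pbrm1 mutant replicate 1, against 5.36 to 5.43 on the other 3, which placed it inside the wild-type range. Isg15 read 3.81 on wild-type replicate 1, against 3.46 to 3.52. Bst2 read 5.81 on Vhl mutant replicate 4, against 6.15 to 6.19, and Samd9l read 6.94 on Pbrm1 mutant replicate 2, against 7.08 to 7.09. These are 4 of 132 sets tested (3.03%), and chance flags about 1 in 20.

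The interaction of Rsad2, by which the effect of losing Pbrm1 in mice with and without Vhl is compared, was -0.63 on the log2 scale (limma adjusted p = 0.00364). It did not pass with arrays averaged per description number (limma adjusted p = 0.095), and it includes comparisons with wild type, in which strain and Cre cannot be told apart from genotype.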

How the results depend on the processing

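Counts of members called, in either direction, are given with the reported count in brackets. The counts of all genes moved with the settings too. With arrays averaged per description number, 188 genes were higher and 58 lower in Vhl mutants against wild type (453 and 398 as reported). In Pbrm1 mutants against wild type they were 120 and 154 (352 and 543 as reported). In Vhl mutants against wild type [9], 3 were called with arrays averaged per description number, 4 without wild-type replicates 3 and 4, 2 without Vhl replicates 1 and 2, 4 at 1.5-fold or more, and 5 to 11 without any single array (5 without Vhl replicate 1). In Pbrm1 mutants against wild type [5], 1 was called with averaged arrays, 0 without wild-type replicates 1 and 2, 3 without Pbrm1 replicates 1 and 2, 2 without Pbrm1 replicates 3 and 4, 0 at 1.5-fold, 3 without the arrays of raised adipose markers (chosen after seeing the data), and 3 to 7 without any single array (3 without wild-type replicate 1 or Pbrm1 replicate 4). In double mutants against wild type [3], 5 were called without wild-type replicates 1 and 2, 5 without the adipose arrays and 3 to 5 without any single array (5 without double mutant replicate 3). In double against Vhl mutants [8], 3 were called without double mutant replicates 1 to 3, 5 without Vhl replicates 1 and 2 and 4 at 1.5-fold. In double against Pbrm1 mutants [11], 4 were called without double mutant replicates 1 to 3, 7 without Pbrm1 replicates 1 and 2, 7 without Pbrm1 replicates 3 and 4 and 3 at 1.5-fold. In Vhl against Pbrm1 mutants [20], 12 were called without Vhl replicates 1 and 2 and 12 at 1.5-fold. For the interaction [1], 0 were called with averaged arrays, and 2 without the block, with double mutant replicates 2 and 3 averaged, with quantile normalization, without wild-type replicates 3 and 4, without the adipose arrays, and 1 to 2 without any single array (2 without double mutant replicate 3). With the replicate number as a fixed replicate block, 10, 6, 3, 9, 13, 22 and 1 members were called, in the order of the comparisons above, and no count moved by over 1.5 times. Settings with fewer arrays have less power; otherwise the cause was not tested. No call changed direction under the 35 alternatives, and 19 of the 57 calls held under all of those that could be fitted.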
